A study of Arabidopsis thaliana with 77 samples.

Results

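The own mutations of episuppressor line 2-20 are the single-base variants of Arabidopsis thaliana that were called in this line and in none of the other 4 libraries with such calls. A call had to lie on chromosomes 1 to 5, with its position and called base absent from every other library at any quality. It also had to have a quality score of at least 50, on the phred-scaled quality of the authors' caller, and a total depth of at least 10 reads. These limits kept 501 own calls, out of 1929 own calls without them and 7329 calls of the library in all. The calls shared by all 5 libraries served as the comparison, and 2125 of those 2883 common calls met the same limits in 2-20. The choice of members used the presence of a call, its quality and its depth, so those values are given as a description only.

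The 5 libraries were made from genomic DNA of rosette leaves of soil-grown plants of the Columbia ecotype, 4 weeks old, and sequenced from both ends. Line 2-20 carries the genotype label rdr1 rdr2 rdr6 ddm1, as do the other 3 episuppressor lines, 2-69, 3-72 and 3-75. The remaining library is labelled rdr1 rdr2 rdr6. The study has 77 samples of several kinds, and each of these 5 groups has 1 library of this kind here, so there is no replicate of 2-20. Every value below describes that library, and the tests compare sets of calls within it, not lines. The labels do not say how many plants went into the library, nor how the mutations arose.

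RNA-dependent RNA polymerases make double-stranded RNA, from which plants produce the small interfering RNAs that direct gene silencing and DNA methylation. DDM1 is a chromatin remodelling ATPase that keeps methylation and silencing over transposons. A mutation present on both chromosome copies is homozygous, and nearly all reads over it carry the changed base. One present on a single copy is heterozygous and is expected in about as many reads as the reference base. Alkylating mutagens such as ethyl methanesulfonate act on guanine and give G to A changes, which read as C to T where the changed G lies on the other strand.

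The alleles named in the label were checked first. In DDM1 (AT5G66750, chromosome 5, 26648897 to 26653191), 2-20 was homozygous for G26652152A, written as reference base, position and called base, with 14 reads for the change and 0 for the reference. It lies in the coding sequence and gives C615Y, written as reference residue, number and changed residue. The stop-gained change G18352401A in RDR6 (AT3G49500) was homozygous with 18 reads to 0. In the library labelled rdr1 rdr2 rdr6 the DDM1 change was present in 9 of 19 reads (47.4%), which its label does not name, so that library is called by its label throughout. RDR1 and RDR2 held no call, and insertion alleles cannot appear among single-base calls.

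The sequences that carry the most disruptive own mutations are shown on the strand of the gene, 5′ to 3′, as the unmutated reference (TAIR10.1, the RefSeq build, whose bases matched the reference base of every call). Each is 27 bases long with 13 bases on either side of the changed base. The first 4 are the stop-gained changes, and capitals mark the codon that becomes a stop. In each, 1 base of the capital codon is changed.
AT3G62870, Q57*, chr3:23243739-23243765, minus strand: ccgtcttcaaaggCAGaagcgtatcct
AT1G11390, W230*, chr1:3836382-3836408, minus strand: cttttatcaaaTGGggtcaatgggcag
AT2G23390, Q79*, chr2:9962944-9962970, minus strand: aaacaagccgaagCAAaaggtgatttc
GATA15 (AT3G06740), R117*, chr3:2127151-2127177, plus strand: agtgatgatgcagCGAtcaacggctga

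Both splice-site changes hit the intron bases next to an exon, which the splicing machinery reads as the intron's ends. Capitals mark the pair of intron bases, and the G of each pair is the base changed.
IP5PI (AT1G34120), acceptor of intron 7, chr1:12428866-12428892, plus strand: ataaccttgtgtAGaagaataatctgg
AT1G30860, donor of intron 3, chr1:10987491-10987517, minus strand: gactccttgagcgGTaagtaaccatca

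A further set shows homozygous missense changes in genes of known roles, with the changed codon in capitals. Both SMC6B and emb1379 belong to the same DNA repair complex, and the others act in splicing, in chloroplasts and in transcription.
SMC6B (AT5G61460), P617S, chr5:24717255-24717281, minus strand: gttttttcgtgggCCAgttcagactac
emb1379 (AT5G21140), L159F, chr5:7188080-7188106, minus strand: aaaggaaaaaactCTCgatgaacttgt
RS41 (AT5G52040), R76H, chr5:21132274-21132300, plus strand: gtatagaatgacCGTggaggtgctgga
VAR3 (AT5G17790), P566S, chr5:5870378-5870404, minus strand: ggaaagcgcaataCCGcaagagatttc
GNC (AT5G56860), P44L, chr5:22991208-22991234, minus strand: catcatcaagtcCCTtctaattcttca

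Line 2-20 carried its own mutations in the heterozygous state on chromosomes 1 to 4 and in the homozygous state along nearly all of chromosome 5. Of the 501 own calls, 102 were given as homozygous by the authors' caller (20.4%, Wilson 95% interval 17.1 to 24.1) and 399 as heterozygous. Among all 2991 calls of 2-20 within the limits, 33.5% were homozygous. The split between chromosomes was part of how these mutations were chosen, so it is described here without a test. All intervals cover counting error only. Calls on the same chromosome are linked, so intervals on shares of calls treat as independent what is not. For intervals on reads, reads made by PCR without molecular identifiers are not independent molecules.

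Chromosome 1 held 139 own calls and chromosome 3 held 93, and none of these was homozygous. On chromosome 2, 3 of 79 calls were homozygous (3.80%, 1.30 to 10.6), and on chromosome 4, 5 of 91 (5.49%, 2.37 to 12.2). Together chromosomes 1 to 4 had 8 homozygous calls among 402 (1.99%, 1.01 to 3.88). On chromosome 5 the homozygous calls numbered 94 of 99 (94.9%, 88.7 to 97.8). The own calls of the other lines, chosen by the same rule, were mixed on chromosomes 1 to 4, where 50.8% were homozygous in 2-69, 41.6% in 3-72 and 72.9% in 3-75. On chromosome 5 those lines had 58.1%, 77.6% and 68.6%. The highest of chromosomes 1 to 4 stood at 91.0% in 2-69, 66.4% in 3-72 and 88.2% in 3-75, against 5.49% in 2-20.

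**Figure D1:**
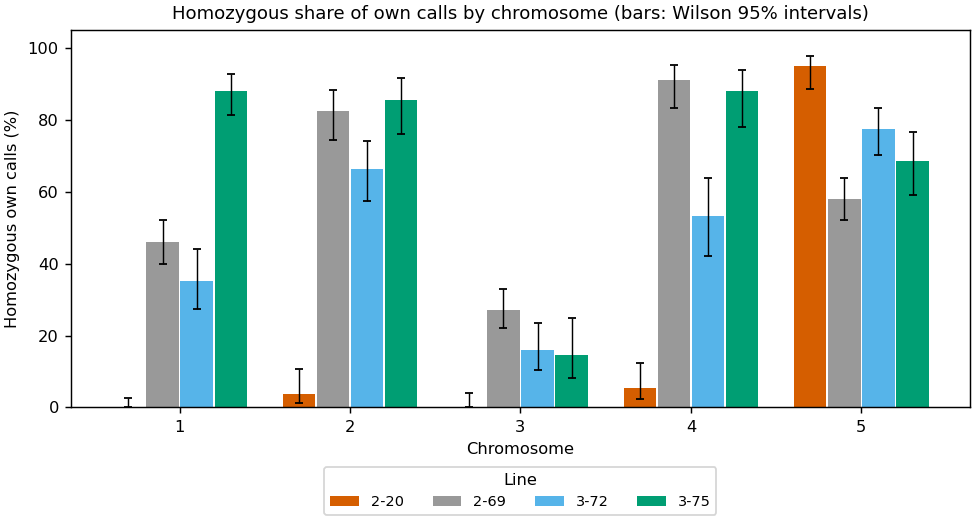
Share of own calls that were homozygous (%), by chromosome, in 2-20 and in the other 3 lines; bars give the share and whiskers the Wilson 95% interval. The 2-20 bars lie at or near 0 on chromosomes 1 to 4 and at 94.9% on chromosome 5.

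On chromosome 5 the homozygous stretch began at 2087849 and ended at 26876864. It spanned 24.8 Mb, or 91.9% of the chromosome. Between these ends lay 94 own G/C to A/T calls within the limits, and 0 of them were heterozygous. The only heterozygous own calls within the limits in the stretch were T11230592C and C24029612G, which are changes of other kinds. The quality limit leaves out many heterozygous calls, and those of chromosome 5 below it are described further on. Before the stretch came 3 heterozygous G/C to A/T calls at 622272, 725854 and 1090808, of which the second was synonymous in AT5G03090 and the last a missense change in AT5G04040. The change from heterozygous to homozygous calls therefore fell between 1090808 and 2087849. DDM1 lay inside the homozygous stretch, 512 kb after the own call at 26136569 and 224 kb before the one at 26876864.

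The end of chromosome 4 held a second, short homozygous stretch. Its last heterozygous own call was at 17573106, and the 4 calls after it were homozygous, at 17798699, 17843412, 18131794 and 18554799. From the last heterozygous call to the chromosome end was 1.01 Mb. The last of these 4 changes is a missense change, A168T, in AT4G40020, annotated as a myosin heavy chain-related protein. The fifth homozygous call of chromosome 4 stood apart at 67473, near the other end, with 11 reads for the change and 2 for the reference. C2909997T on chromosome 1 had the same read counts and was called heterozygous. Both calls had a genotype quality of 4 from the authors' caller.

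Each of the 3 homozygous calls of chromosome 2 listed more than 1 called base (C5812637A,G, A17995589C,G and C19698032T,A), and other libraries had a homozygous call at the same position with another listed base. On chromosome 5, 1 homozygous call also listed more than 1 base, C13128294T,A. The last of the chromosome 2 calls had a depth of 489 reads, the highest of all own calls. It lay near the chromosome end, and its called base was read on the forward strand alone (463 reads, 0 reverse). Of the 501 own calls, 5 listed more than 1 base and 4 lay at a position called in another library. At all others no other library had a call. The files list only called sites, so such a site can be a reference site or one without coverage in the other libraries.

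**Figure D2:**
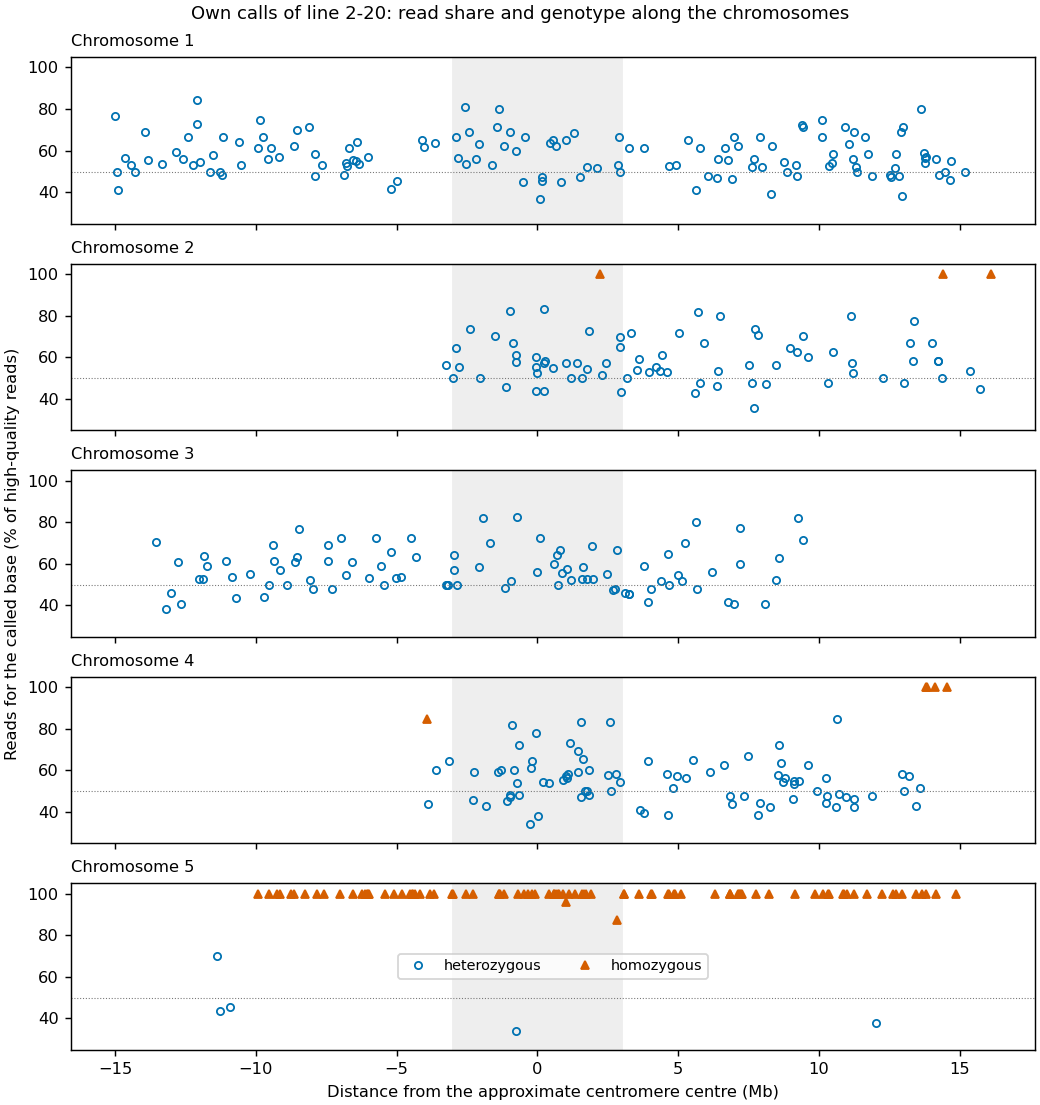
Share of high-quality reads for the called base (%) at each own call of 2-20 against the distance from the approximate centromere centre (Mb), 1 panel per chromosome. Open circles are heterozygous calls, triangles are homozygous calls, and the grey band marks 3 Mb on either side of the centre. Triangles fill chromosome 5 from 2087849 onward, and 4 end chromosome 4.

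Read shares followed the genotypes, which the authors' caller sets from the same reads, so the 2 are not independent. The 94 homozygous calls of chromosome 5 rested on 1687 high-quality reads for the changed base and 4 for the reference base, and 92 of them had 0 reference reads. Over all 102 homozygous calls, 98 had 0 reference reads. The heterozygous calls of chromosomes 1 to 4 had a median share of 56.2% of reads for the changed base on chromosome 1, 57.1% on chromosome 2, 55.2% on chromosome 3 and 54.8% on chromosome 4. Over these 4 chromosomes the share ran from 34.3% to 84.6%, with the lower quartile at 50% and the upper at 63.6%. Of all 399 heterozygous calls, 377 lay between 25% and 75%. The changed base was read on both strands at 500 of the 501 own calls, all but C19698032T,A.

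The median heterozygous share stood above 50% on each of chromosomes 1 to 4, and it moved with the quality score. Pooled over chromosomes 1 to 4, the heterozygous calls had 4756 reads for the changed base and 3744 for the reference (56%). More reads carried the change than the reference at 278 of the 399 heterozygous calls, and fewer at 91. On the arms of chromosomes 1 to 4, heterozygous own G/C to A/T calls with at least 10 reads had a median share of 31.2% at quality under 20, over 111 calls. The median was 41.9% at 20 to under 50 (180 calls), 52.6% at 50 to under 70 (127 calls) and 56.5% at 70 to under 90. It was 60.9% at 90 or more (34 calls). The limit of 50 on quality thus leaves out many calls of lower share, and the part of this in the median of 56.2% was not tested. Heterozygous own calls of the other lines had medians of 50% in 2-69, 61.1% in 3-72 and 56.2% in 3-75, with median depths over all their own calls of 30, 15 and 18 reads.

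Median depth at the own calls was 20 reads on chromosome 1, 21 on chromosomes 2 and 3, 23 on chromosome 4 and 18 on chromosome 5, and it ran from 10 to 489 overall. Median quality was higher on chromosome 5, at 133, than on chromosomes 1 to 4, where it lay between 69 and 75. The same gap stood between homozygous calls, at 135, and heterozygous calls, at 71. Just inside the limit, at 50 to under 55, were 48 own calls, of which 44 were G/C to A/T and 0 homozygous. Just outside it, at 45 to under 50, were 54, of which 45 were G/C to A/T and 0 homozygous. With 10 or 11 reads there were 17 own calls (8 homozygous), and with 8 or 9 reads 6 (6 homozygous).

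Below the quality limit chromosome 5 did hold heterozygous own calls. At any quality it had 74 heterozygous own G/C to A/T calls, of which 55 had a quality under 20 and 44 lay within 3 Mb of the centre. Their median share of changed reads was 30% at a median depth of 20. On the arms of chromosome 5, with at least 10 reads, 8 of them had a quality of 20 to under 50. Their median share was 40.5%, near the 41.9% of the 180 such calls on the arms of chromosomes 1 to 4. Of these 8 calls, 3 lay before the first homozygous own call and the others after it. The 1428 own calls outside the limits as a whole had a median quality of 12.3, were G/C to A/T in 48.0% and lay within 3 Mb of a centre in 59.9%. Common calls outside the pericentromeres, held to the limits, were heterozygous at 19 of 61 sites on chromosome 5 (31.1%) and at 82 of 295 on chromosomes 1 to 4 (27.8%). What sets these heterozygous calls was not tested.

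Nearly every own mutation of 2-20 was a G/C to A/T change, 482 of 501 (96.2%, 94.2 to 97.6). That kind made up 31.5% of all calls of 2-20 within the limits, and 382 of the 2125 common calls (18.0%, 16.4 to 19.7). Own and common calls differed by 78.2 percentage points (two-sided Fisher's exact test, Benjamini-Hochberg adjusted over 3 tests, p = 8.45e-254). The sets were chosen by presence and quality, and the share moved with the quality limit. The test therefore cannot tell the kinds of mutation from the way the calls were chosen, and it treats linked calls as independent. Of the 1428 own calls outside the limits 48.0% were G/C to A/T, and at a quality limit of 20 the difference was 64.5 percentage points. The library labelled rdr1 rdr2 rdr6 had 42 own calls by the same rule, of which 12 were G/C to A/T (28.6%). The homozygous own calls of 2-20 were of this kind in 99 of 102 cases (97.1%) and the heterozygous ones in 383 of 399 (96.0%). The other 19 own calls were 8 A/T to G/C, 4 A/T to T/A, 3 A/T to C/G, 3 G/C to T/A and 1 G/C to C/G.

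The bases next to the changed G were compared with those next to all G of the genome, as a description. Adenine came before it in 40.2% of the 482 changes (36.0 to 44.7), against 33.0% of all G in chromosomes 1 to 5 and 32.7% of the common G/C to A/T calls. Guanine came before it in 25.1% (21.4 to 29.2), against 18.8% in the genome and 22.5% of the common calls. Thymine came before it in 19.5% (16.2 to 23.3), against 35.3% in the genome, which was the widest gap of the 8 neighbours. The common calls, at 24.9%, also lay below the genome there. In the other lines thymine came before the changed G in 17.2% (2-69), 17.7% (3-72) and 17.8% (3-75) of own changes. After the changed G, thymine stood in 24.5% (20.9 to 28.5) against 29.0% in the genome. The triplet AGA, with the changed G in its middle, was the most frequent, with 88 changes (18.3% against 12.8% in the genome). Against their genome share, TGA was hit 0.488 times as often, CGG 1.75 times and GGC 1.70 times.

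Seen from the changed cytosine, which plants methylate in 3 sequence contexts, 15.1% of the changes lay in CG, 20.3% in CHG and 64.5% in CHH, where H is any base but G. The genome's cytosines fell into these contexts in 13%, 14.2% and 72.8%. No methylation values were used here.

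**Figure D3:**
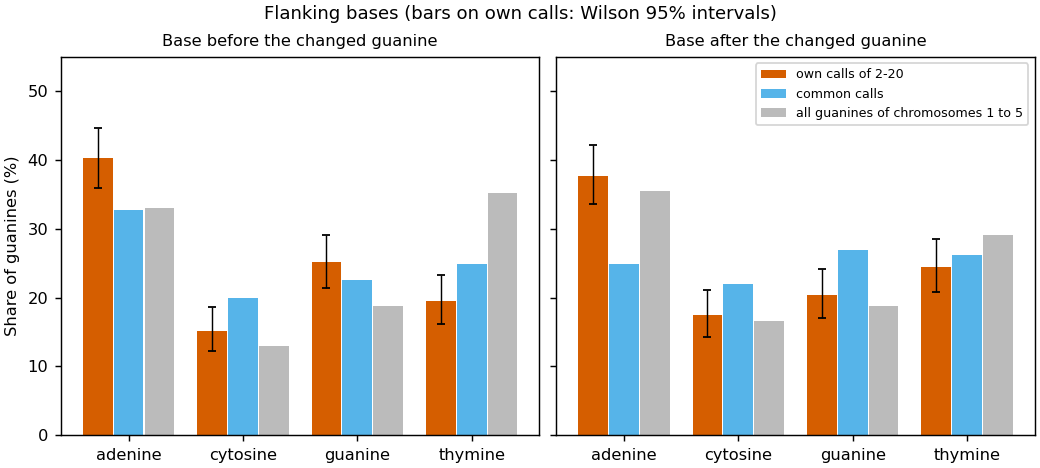
Share (%) of each base before and after the changed G in the 482 own G/C to A/T changes of 2-20, with Wilson 95% intervals, beside its share around all G of chromosomes 1 to 5 and around the common G/C to A/T calls. Thymine before the changed G is rarer (19.5%) than in the genome (35.3%), and it is also rarer there in the common calls (24.9%).

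Own mutations were spread over the whole of each chromosome, while common calls gathered near the centromeres. Within 3 Mb of the approximate centromere centres, regions that cover 25.2% of chromosomes 1 to 5, lay 155 of the 501 own calls (30.9%, 27.0 to 35.1). Own calls of the other lines lay there in similar shares, 30.5% in 2-69, 27.6% in 3-72 and 32.2% in 3-75. Of the common calls 1769 of 2125 lay there (83.2%, 81.6 to 84.8), so the own share differed by -52.3 percentage points (two-sided Fisher's exact test, adjusted p = 3.03e-112). Own and common calls were sorted by presence in the other libraries and held to a quality limit. The test therefore cannot tell the places of mutations from the way the calls were chosen. Of the own calls outside the limits, 59.9% lay near the centres, and at a quality limit of 20 the difference was -44.8. The density of own calls was 5.17 per Mb near the centres and 3.88 per Mb on the arms. By chromosome it was 4.57, 4.01, 3.96, 4.90 and 3.67 per Mb from chromosome 1 to 5, and 4.20 per Mb overall. Windows of 1 Mb, 121 in all, held 1 to 13 own calls with a median of 4, and 0 were empty. The fullest was 5000001 to 6000000 on chromosome 4. The median distance between neighbouring own calls was 164 kb and the longest 1.21 Mb, on chromosome 5. Among them were 5 pairs closer than 2 kb, in each of which both changes had the same orientation. The closest pairs were G15241409A and G15241431A, 22 bp apart in an intron of AT4G31405, and C2909967T and C2909997T, 30 bp apart in intergenic DNA of chromosome 1.

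The orientation of the changes ran in long blocks. Written on the reference strand, 269 of the own changes were G to A and 213 were C to T. Neighbouring changes on the same chromosome had the same orientation in 370 of 477 pairs (77.6%). Common G/C to A/T calls did so in 214 of 377 pairs (56.8%). By chromosome the share of own pairs was 77.5% (100 of 129), 86.7% (65 of 75), 64.4% (58 of 90), 65.5% (57 of 87) and 93.8% (90 of 96) from chromosome 1 to 5. Where both neighbours were homozygous it was 91 of 95 (95.8%), and where both were heterozygous 276 of 378 (73.0%). The other lines had 83.8% in 2-69, 90.2% in 3-72 and 92.3% in 3-75 over all pairs. Among their homozygous pairs the shares were 98.1%, 98.5% and 96.6%, and among heterozygous pairs 67.2%, 83.5% and 78.7%. Neighbouring pairs share calls, so no test is given.

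Chromosome 5 was made of 3 homozygous blocks of alternating orientation. A run of 37 G to A changes went from 2087849 to 11655156 (9.57 Mb). It was followed by 27 C to T changes from 11799261 to 17103928 and, after 4 G to A changes and 1 C to T change, by 25 G to A changes from 19153473 to 26876864. The switch after the first run lay next to the approximate centre of the chromosome at 12 Mb. Single changes of the other orientation were rare within these blocks, as the plot of orientation along the chromosomes shows.

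Heterozygous chromosomes also held blocks of 1 orientation, beside regions with both. The edges of the regions below were chosen after the values were seen. On chromosome 1, 46 of 47 changes up to 11 Mb were C to T, including a run of 37 from 2574361 to 10987504 (8.41 Mb). All 27 changes beyond 25.5 Mb were G to A. The middle, from 11 to 25.5 Mb, held 22 G to A and 34 C to T changes in mixed order. Chromosome 2 had 15 C to T and 0 G to A changes up to 3.6 Mb, its approximate centromere centre, and 54 G to A and 7 C to T changes beyond it. On chromosome 3 both orientations were present up to 13.3 Mb (26 G to A, 24 C to T), and beyond it 40 of 41 were G to A. Chromosome 4 was mixed up to 10.5 Mb (28 and 23), and beyond it 34 of 37 were C to T. The longest run among common calls was 16.

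**Figure D4:**
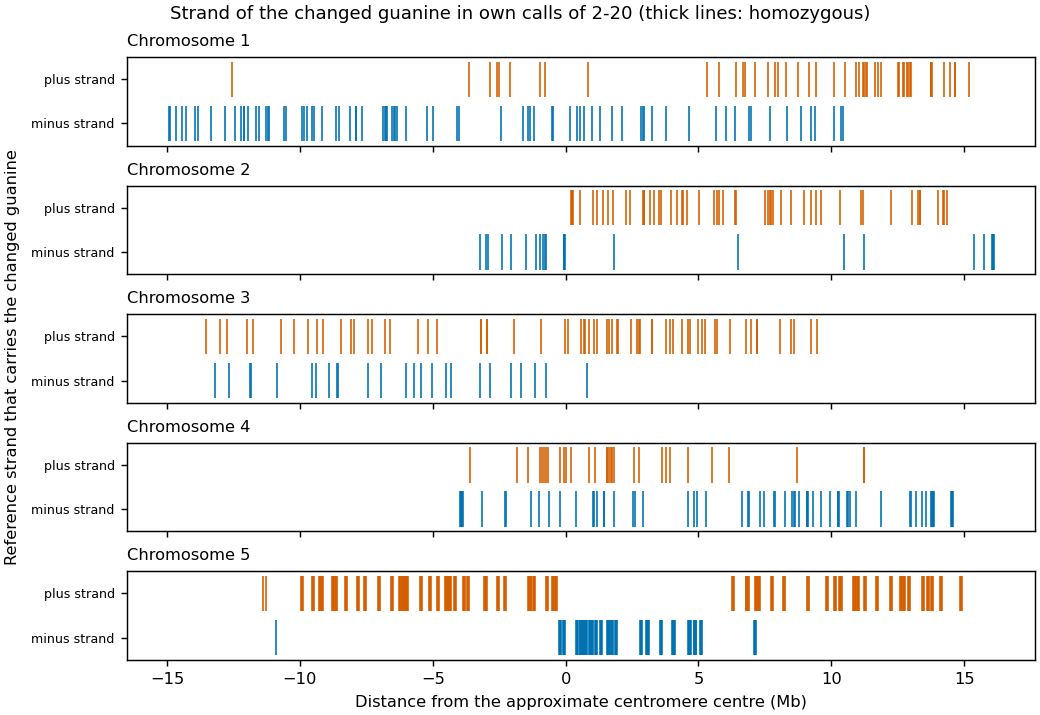
Each line is an own G/C to A/T change of 2-20, placed by its distance from the approximate centromere centre (Mb) and by the reference strand that carries the changed G (plus: G to A, minus: C to T). Thick lines are homozygous calls and thin lines heterozygous ones. Blocks of 1 orientation alternate on chromosome 5, and chromosomes 1, 3 and 4 show regions with both.

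Each own mutation was placed on the gene models to see which genes were hit. Coding sequence held 188 of the 501 (37.5%), against 9.04% of common calls, while 28.1% of chromosomes 1 to 5 is coding. Protein-coding genes as a whole held 281 own calls (56.1%), near the 54.1% of chromosomes 1 to 5 that they cover. Both genome shares count all bases, whereas 96.2% of own calls changed a G/C pair to A/T, and no share of G/C bases was computed. Of the own calls 124 were missense, 60 synonymous and 4 stop-gained. Another 2 were at splice sites, 65 in introns, 12 in 5′ UTRs, 13 in 3′ UTRs and 1 in another isoform only. Pseudogenes and non-coding genes held 77, of which 63 were in pseudogenes, and 143 were intergenic. Within protein-coding genes the changed G lay on the coding strand in 149 cases and on the template strand in 126.

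Protein-altering changes are stop-gained, stop-lost, start-lost, splice-site and missense changes. Among own calls they numbered 130 (25.9%, 22.3 to 30), against 147 of the 2125 common calls (6.92%). The own ones fell in 130 different genes, 0.474% of the 27444 protein-coding genes. The missense share of missense and synonymous changes was 124 of 184 in own calls (67.4%) and 142 of 188 in common calls (75.5%). That difference of -8.14 percentage points did not pass the threshold (two-sided Fisher's exact test, adjusted p = 0.0861). It did pass at a quality limit of 20, where it was -9.91 (adjusted p = 0.0297). Among G/C to A/T calls alone, the kind that differs most between own and common calls, it was -5.40 (adjusted p = 0.687). Over all alternatives to this result it lay between -15.0 and -5.40, and none but the limit of 20 passed. The ratio of missense to synonymous own changes was 1.5 among homozygous calls (18 to 12) and 2.21 among heterozygous ones. Of the 102 homozygous calls, 0 were stop-gained or at a splice site, where a count of 0 allows up to 3 calls (2.94%). Among the 399 heterozygous calls there were 6.

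The most frequent residue changes were A to V (12), D to N (11), G to E (10), A to T (9) and E to K (9), all of which a G/C to A/T change can give. A negative score in the BLOSUM62 substitution matrix marks a residue exchange that is rare between related proteins. It applied to 42 of the 124 own missense changes (33.9%), to 6 of the 18 homozygous ones (33.3%) and to 72 of the 142 common ones (50.7%). The kind of base change limits which residue changes can occur, and G/C to A/T made up 96.2% of own and 18.0% of common calls. These shares were not compared among G/C to A/T calls alone.

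All 6 stop-gained and splice-site changes were heterozygous. AT3G62870, a ribosomal protein of the L7Ae family (chromosome 3, 23242561 to 23244397), carried Q57* in 18 of 22 reads (81.8%, exact 95% interval 59.7 to 94.8). This stop leaves 56 of 256 residues. AT1G11390, a kinase-family protein with an ABC1 domain, carried W230* in 10 of 15 reads (66.7%, 38.4 to 88.2) and keeps 229 of 624 residues. AT2G23390 carried Q79* in 12 of 26 reads (46.2%, 26.6 to 66.6) and keeps 78 of 469 residues. GATA15, a zinc-finger transcription factor (chromosome 3, 2126312 to 2127467), carried R117* in 10 of 19 reads (52.6%, 28.9 to 75.6) and keeps 116 of 149 residues. The first lay highest in read share, but its interval overlaps those of the other 3.

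IP5PI, an inositol polyphosphate 5-phosphatase (chromosome 1, 12426700 to 12429714), carried the acceptor change G12428879A in 13 of 16 reads (81.2%, 54.4 to 96.0). AT1G30860, a RING/U-box protein (chromosome 1, 10986496 to 10989593), carried the donor change C10987504T in 13 of 21 reads (61.9%, 38.4 to 81.9). Whether splicing changed was not measured here.

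The homozygous missense changes numbered 18, with 17 on chromosome 5 and 1, in AT4G40020, at the end of chromosome 4. Each had 0 reference reads, and the reads for the change ran from 9 in AIL5 to 26 in GNC, ADR1-L3, MYR1 and EMB506. With 9 reads the exact interval on the share of changed reads reaches down to 66.4%, and with 26 reads to 86.8%. In order of role, those in genome maintenance came in SMC6B and emb1379. SMC6B (chromosome 5, 24714076 to 24721970), annotated under the symbol MIM, encodes an SMC6 protein of the SMC5/6 complex, which acts in DNA repair by homologous recombination. It carried P617S with 19 reads. The gene emb1379 (chromosome 5, 7187096 to 7189696), named for defective embryos, encodes the Nse1 subunit of that complex and carried L159F with 17 reads.

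These genes of the SMC5/6 complex were looked up in the other libraries after their values were seen. Line 2-69 carried another change in emb1379, R18Q, heterozygous with 13 of 22 reads. SMC5 carried L953F in 3-75, homozygous with 15 reads to 0. SMC6A held no call in any of the 5 libraries. Changes of this number were not set against a background, and no test is given.

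Transcription factors with a homozygous missense change were GNC, a GATA factor of greening and chloroplast development (P44L, 26 reads), MYR1, a MYB-related factor (R390C, 26 reads), AIL5, an AINTEGUMENTA-like AP2 factor (A111V, 9 reads) and HB25, a zinc-finger homeodomain factor (A131T, 12 reads). RS41, an arginine/serine-rich splicing factor, carried R76H with 21 reads. Chloroplast genes were VAR3, needed for chloroplast and leaf palisade development (P566S, 20 reads), Cpn60beta3, a chaperonin subunit (V189I, 21 reads), and EMB506, an ankyrin-repeat protein needed for embryo development (E99K, 26 reads). The immune receptor genes were RPS6, a TIR-type resistance protein (D930N, 19 reads), and ADR1-L3, a protein of the ADR1 family of resistance proteins (V161I, 26 reads). OXP1, the 5-oxoprolinase of glutathione breakdown, carried E564K with 16 reads. The remaining 5 were AT5G10560, a glycosyl hydrolase (P155L), AT5G16640, a pentatricopeptide repeat protein (R211Q), AT5G56410, with FBD and leucine-rich repeat domains (R495W), AT5G26850, uncharacterized (A878T), and AT4G40020 (A168T).

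**Figure D5:**
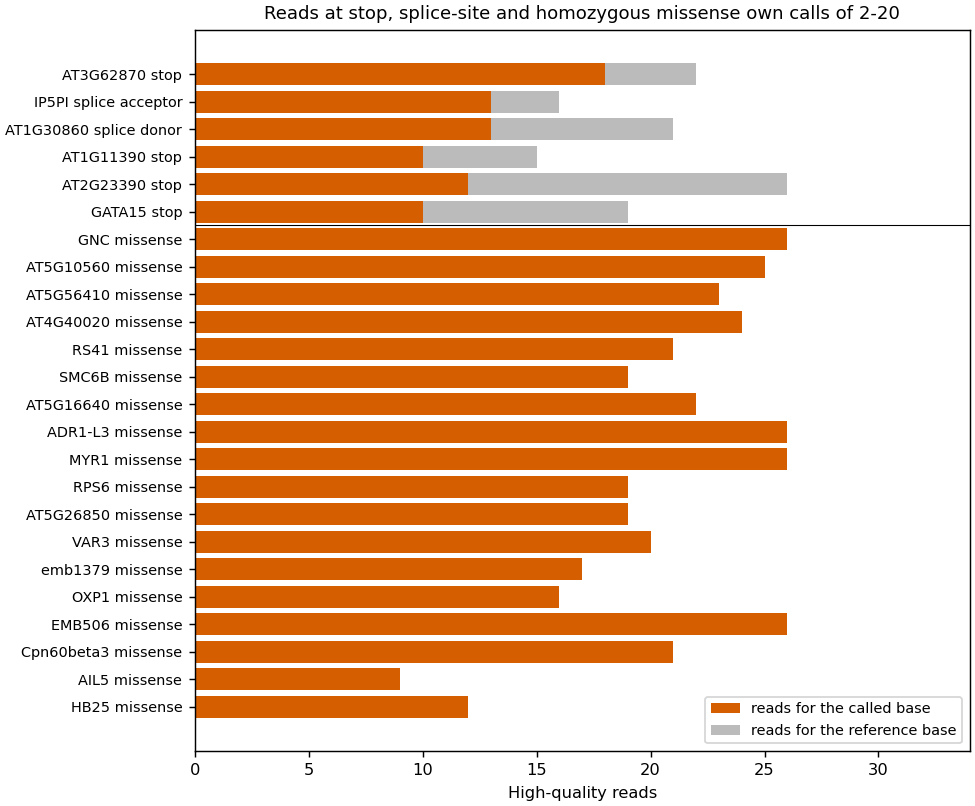
High-quality reads for the called base and for the reference base at the 6 stop-gained and splice-site calls (upper group, heterozygous) and at the 18 homozygous missense calls (lower group). The upper bars hold reads of both bases and the lower bars hold 0 reference reads.

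Among heterozygous missense changes, the 10 of highest quality included PSBW, a small subunit of photosystem II, with L18F in 21 of 30 reads (70%, 50.6 to 85.3). The auxin efflux carrier gene PIN3 carried S101N in 17 of 29 reads (58.6%, 38.9 to 76.5). The ammonium transporter gene AMT1;3 carried A237V in 21 of 32 reads (65.6%, 46.8 to 81.4). The other 7 were R329K in AT2G05642, G190E in AT3G29040, V242M in AT4G24840, E339K in AT3G15940, G276S in AT2G17410, S111N in AT2G10602 and E399K in AT1G48450. Their shares ran from 52.8% in AT2G17410 to 70.4% in AT2G05642.

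Own protein-altering changes of 2-20 met those of another line in 8 genes, at different positions. Of the 27444 protein-coding genes, 130 carried such changes in 2-20, 240 in 2-69, 171 in 3-72 and 132 in 3-75. Whether 8 shared genes are more than these counts would give by chance was not tested. AT2G29210, a PWI-domain splicing factor, was altered in 2 other lines. It carried R179H in 9 of 14 reads in 2-20, R204C in 3-72 and P404S in 3-75, both homozygous. PCN, a WD40-repeat protein needed in embryos, carried P432L in 12 of 22 reads in 2-20 and E680K, homozygous, in 2-69. SPI, a BEACH-domain protein, carried A704T in 10 of 20 reads in 2-20 and S275F, heterozygous, in 2-69. AT5G26850 had P476S, heterozygous, in 3-75 beside its homozygous A878T in 2-20. The others were emb1379, AT1G11300 (A144V, and T305I in 3-72), AT3G28770 (V2012M, and D226N in 3-75) and AT3G54580 (P355S, and P504S in 2-69). The last 3 were heterozygous in both lines. These 8 genes were found after the values were seen, and longer genes have more bases at which a change can fall.

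Lists of genes from pathways related to the genotype were then looked up. Of 33 matched RNA silencing genes 0 had a protein-altering own change in 2-20, and of 32 DNA methylation and chromatin genes 0. The methylation list had 1 own call of any kind, in VIM1 (AT1G57820), which did not alter the protein. Of 30 genes on the centromere, kinetochore and cohesin list 1 was altered, SMC6B (3.33%), and of 24 meiosis genes 0. SMC6B was on that list, but it encodes a protein of the DNA repair complex described above. Its count therefore does not show that a centromere, kinetochore or cohesin gene was altered. The altered gene emb1379 of the same complex was on none of the lists. Beside the 0.474% of all protein-coding genes, the counts of these lists are too small to set a list apart. The lists do not hold every gene of a pathway, so a count of 0 covers the listed genes only. Outside the lists, the chromatin-related genes SUVR1 (G645R), OTLD1 (A90V) and SPT16 (V808M) carried heterozygous missense own changes. They were picked from the 130 altered genes after the values were seen, outside the rule for named genes. Such genes were not counted or set against a background, so these examples do not change the list counts. DDM1 and RDR6 are mutated in every line and so are not own calls.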

How the data were processed

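Genomic DNA libraries were analysed from the calls the authors deposited, 1 file per library (VCF 4.1). The caller was samtools 0.1.19-44428cd, per the file headers. Bowtie, SAMtools, Bismark and the build TAIR10 are named without roles, per the submitters' processing notes. Each call carries a phred-scaled quality score of the authors' caller, a total depth, high-quality reads per base and a genotype, per the file headers. Filters: not given in the sources used here.

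Calls were matched by chromosome, position and called bases. RefSeq models of TAIR10.1 gave genes, and changes were translated on the longest coding sequence. Splice sites were the 2 intron bases next to an exon. Approximate centres were 15, 3.6, 14, 4 and 12 Mb. Shares have Wilson and reads at a site exact 95% intervals. Own calls were set against common calls in 3 two-sided Fisher's exact tests, adjusted together (Benjamini-Hochberg). Named were all stop-gained and splice-site own calls, homozygous protein-altering calls (up to 30), altered list genes and the 10 heterozygous missense calls of highest quality. Members and gene lists were chosen with earlier results of these data known. List symbols matched 33 of 36, 32 of 32, 30 of 37 and 24 of 26 genes. Scripts ran on Python 3.11.15 with Biopython 1.88, scipy 1.17.1, numpy 2.4.6 and matplotlib 3.10.9 and were tested on simulated data, where 2000 of 2000 coding changes matched an independent translation.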

Additional observations from a re-analysis of the deposited data

How the results depend on the processing

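Over 18 results and 15 alternative settings, 187 of 204 values were kept, and 0 reversed. A tested difference was kept if its sign and its side of the p threshold stayed, whatever its size. Shares were kept within the main Wilson interval, medians within the standard deviation of the calls, and counts within a set ratio. Values kept by these rules could still move. At a quality of 20 or more, the G/C to A/T difference was 64.5 percentage points and the median heterozygous share on chromosomes 1 to 4 was 48%. The values that were not kept came with the quality limit and the depth limit. At a quality of 100 or more, 108 own calls were left. The homozygous share was 100% of those on chromosome 5 and 33.3% of those on chromosomes 1 to 4, protein-altering calls numbered 22 and stop-gained or splice-site calls 0. The median heterozygous share was 66.7%, same orientation 93.0%, and after the changed G stood adenine in 31.4%, cytosine in 14.3% and thymine in 31.4%. At a quality of 20 or more there were 946 own calls, and the homozygous share was 65.7% of those on chromosome 5 and 0.996% of those on chromosomes 1 to 4, with 16 stop-gained or splice-site calls and a missense difference of -9.91 (Fisher's exact test, adjusted p = 0.0297). With 20 or more reads there were 283 own calls and 3 stop-gained or splice-site calls. Beyond fewer or more calls, the cause was not tested.

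No paired analysis was possible because each line has 1 library of this kind and its labels carry no replicate number. Depth of 10 to about 20 reads limits the genotype of a single call, since few reads can miss a base. Own means uncalled elsewhere, and coverage at uncalled sites of the other libraries is not listed.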
